A study of Mus musculus with 6 samples.

Results

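The 36 genes described here carry out chromosome duplication and division in dividing cells, from cyclins and replication factors to spindle proteins and mitotic kinases. They are a list of mouse genes matched by NCBI Gene ID and chosen with earlier results of these data known. All 36 were found among the 45679 genes of the files. They fall into 7 roles: cyclins of G1 and S phase, origin licensing and helicase, fork and nucleotide supply, entry into mitosis, spindle and kinetochore, mitotic exit, and a pair of markers of dividing cells. All 36 had at least 1 TPM in at least 2 libraries and entered the tests. TPM is transcript abundance scaled for transcript length and for the library total.

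Messenger RNA was sequenced from whole ovaries of wild type BDF1 mice, an F1 hybrid laboratory strain. There were 3 groups of 2 libraries: 8 week old mice given PBS (young PBS), 65 week old mice given PBS (old PBS) and 65 week old mice given MIT-001 (old MIT-001). MIT-001 is a scavenger of reactive oxygen species that is targeted to mitochondria, and injections into the abdomen, at 0.5 mg/kg, were given for 7 days. The labels do not say which or how many animals gave a library, or the stage of the cycle, so a p-value measures only the spread between these libraries.

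In the adult ovary the cells that divide most are granulosa cells of growing follicles, which multiply many times between the primary and the preovulatory stage and leave the cycle when they become luteal cells. Theca, endothelial, surface epithelial and immune cells can divide as well. Oocytes do not replicate their DNA after birth, but growing oocytes store messages for the meiotic divisions, cyclin B1 among them, so some of these transcripts need not come from dividing cells. In a dividing cell, E2F factors switch on replication genes at the entry into S phase. A later set of mitotic genes is repressed in resting cells and activated before mitosis through MuvB complexes, with B-MYB and FOXM1, and many promoters of this set hold CCAAT boxes bound by NF-Y and an element called CHR.

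Before the comparisons, the labels were set against cell type markers. The libraries labelled old PBS held more of the oocyte and granulosa cell transcripts than those labelled young PBS, which goes against the ages. The growth factor gene Gdf9, active in oocytes, stood at 73.3 and 9.51 TPM in young PBS, 116 and 108 TPM in old PBS, and 22.8 and 9.35 TPM in old MIT-001. Amh, a hormone gene of the granulosa of growing follicles, stood at 95.0 and 40.1 TPM in young PBS, 123 and 213 TPM in old PBS, and 50.1 and 80.6 TPM in old MIT-001. Igkc, an antibody gene of plasma cells, stood at 1340 and 174 TPM in young PBS, 9.50 and 10.6 TPM in old PBS, and 887 and 73.8 TPM in old MIT-001. Whether labels of the groups were exchanged was not tested. Groups are therefore named by their labels throughout, and every direction given below is a direction between libraries so labelled. Young PBS library 2 stood apart from library 1, with the summed TPM of 14 oocyte genes at 49.8 against 432 and that of 4 luteal genes at 20840 against 1474. Depth implied by the deposited coverage was 6.34 to 7.14 gigabases of aligned reads per library.

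The sequences upstream of these genes carry the elements named above, and 6 promoters are shown because each comes from another role and had, of that role's genes with a window, the smallest p in old PBS against young PBS. Each stretch runs from 200 bases before to 30 bases after a RefSeq transcription start (GRCm38.p6, the patch level of mm10), 5′ to 3′ on the gene's own strand, with matches to the motifs in capitals. Each motif was searched on both strands, and matches may overlap each other. The CCAAT box was searched by its own letters, which read ATTGG when the match is on the opposite strand. The CHR was searched as TTTGAA, which then reads TTCAAA. The first E2F core was TTCCCGC, which reads GCGGGAA in the Mcm3 stretch. The second core searched was TTCGCGC. As the third core, the search used TTGGCGC. Mcm3, a helicase subunit, lies at chr1:20820283-20820512 (minus strand), and Rrm2, a subunit of ribonucleotide reductase, at chr12:24708054-24708283 (plus strand). The kinase gene Aurka lies at chr2:172370541-172370770 (minus strand) and the checkpoint kinase gene Bub1 at chr2:127831830-127832059 (minus strand). Ube2c, a ubiquitin carrier of mitotic exit, lies at chr2:164769729-164769958 (plus strand) and Top2a, the topoisomerase that untangles chromosomes, at chr11:99024160-99024389 (minus strand).
Mcm3: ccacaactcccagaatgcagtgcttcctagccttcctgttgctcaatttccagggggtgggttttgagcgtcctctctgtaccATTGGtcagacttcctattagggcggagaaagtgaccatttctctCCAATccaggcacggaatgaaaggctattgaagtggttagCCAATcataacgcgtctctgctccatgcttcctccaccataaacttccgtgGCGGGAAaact
Rrm2: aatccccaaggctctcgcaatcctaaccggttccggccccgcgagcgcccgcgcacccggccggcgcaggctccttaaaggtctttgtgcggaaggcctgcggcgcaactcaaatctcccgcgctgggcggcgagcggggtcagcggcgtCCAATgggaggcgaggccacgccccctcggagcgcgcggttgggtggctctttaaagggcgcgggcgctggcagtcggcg
Aurka: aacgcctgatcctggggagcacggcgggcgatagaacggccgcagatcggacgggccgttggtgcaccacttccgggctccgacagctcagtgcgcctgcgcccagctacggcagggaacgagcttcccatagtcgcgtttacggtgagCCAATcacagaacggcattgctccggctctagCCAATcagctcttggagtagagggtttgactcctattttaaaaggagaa
Bub1: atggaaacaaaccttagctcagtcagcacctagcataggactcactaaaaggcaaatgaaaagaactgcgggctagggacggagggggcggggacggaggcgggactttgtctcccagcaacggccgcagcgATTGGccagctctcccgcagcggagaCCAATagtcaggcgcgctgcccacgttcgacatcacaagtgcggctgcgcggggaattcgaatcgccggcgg
Ube2c: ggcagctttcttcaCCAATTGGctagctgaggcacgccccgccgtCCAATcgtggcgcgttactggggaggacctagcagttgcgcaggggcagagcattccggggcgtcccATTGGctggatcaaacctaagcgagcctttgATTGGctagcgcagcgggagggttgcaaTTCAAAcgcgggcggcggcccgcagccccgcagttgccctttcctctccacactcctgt
Top2a: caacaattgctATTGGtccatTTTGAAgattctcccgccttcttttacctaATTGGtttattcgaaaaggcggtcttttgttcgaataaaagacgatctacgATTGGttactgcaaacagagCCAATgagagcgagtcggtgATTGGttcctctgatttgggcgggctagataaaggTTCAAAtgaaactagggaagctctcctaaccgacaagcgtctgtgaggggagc
The Ube2c and Top2a stretches each hold an opposite strand CHR shortly before the start, at positions -29 and -23, with CCAAT boxes upstream of it. Aurka has a CHR at position 33, just past the printed end, and the Mcm3 stretch ends on an E2F core at position 20. No CHR or E2F core lies in the Bub1 and Rrm2 stretches, which says only that these letters are not in them.

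Over windows of 300 bases (250 before and 50 after the start), 30 windows of 29 of the 36 genes were in the RefSeq table. Aurkb, Ccnd2, Mcm4, Foxm1, Kif20a, Ccna2 and Tpx2 had none. A CCAAT box was in 83.3% of the windows of these genes, against 37.4% of all 32851 windows in the table, and 53.3% against 11.7% held 2 or more. A CHR was in 46.7% against 17.9%, a CHR and a CCAAT box together in 46.7% against 6.95%, and any of the E2F cores in 36.7% against 8.07%. The shares differed by role. E2F cores lay in 7 of 8 windows of the licensing and helicase genes (Cdc6, Cdt1, Mcm3, Mcm5, Mcm6 and both windows of Mcm7), in 2 of 5 for entry into mitosis (Ccnb1, Cdk1), 1 of 2 of the markers (Mki67), 1 of 4 of the fork genes (Rrm1), and in 0 of 8 of the spindle and kinetochore genes. CHR matches lay in 4 of 5 windows of genes for entry into mitosis (Aurka, Ccnb2, Cdk1, Plk1), 5 of 8 of the spindle and kinetochore genes, 2 of 2 for mitotic exit and 2 of 2 for the markers, but in 1 of 8 licensing and helicase windows (Mcm2). These are shares of letters in windows, with no test, and a match is not a bound site.

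**Figure D1:**
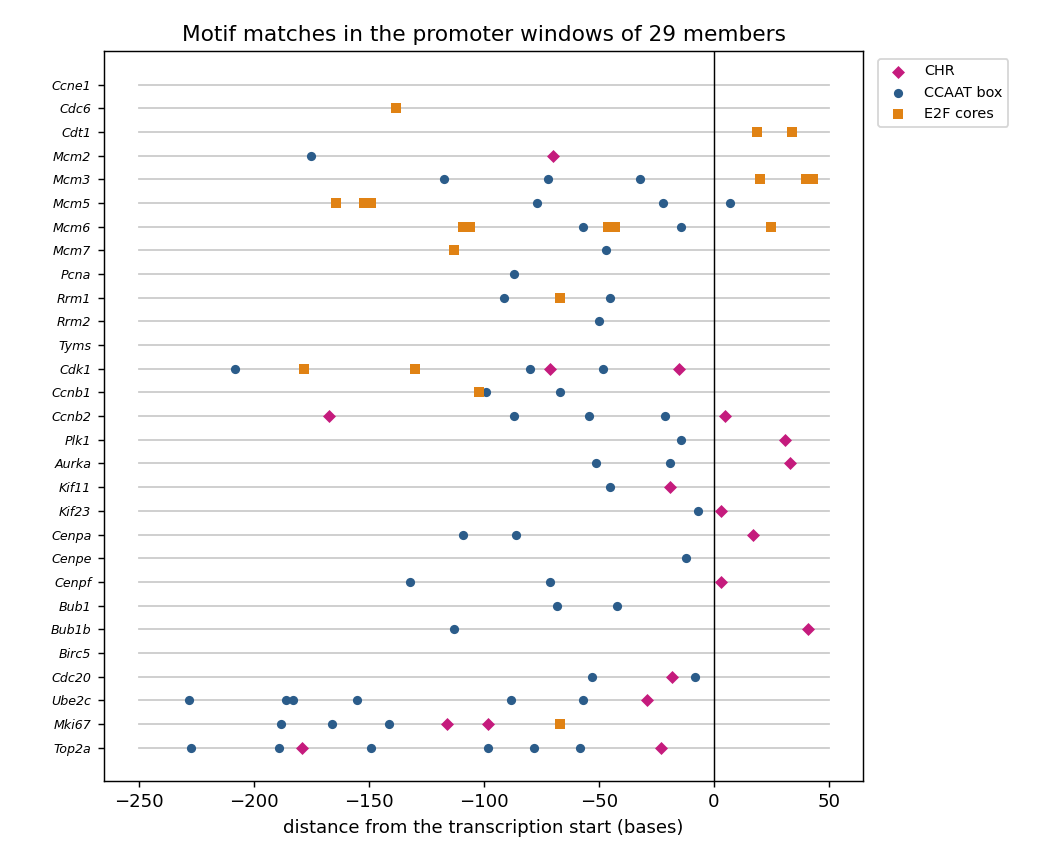
Positions of motif matches in the promoter windows of 29 of the genes, in bases from the transcription start (vertical line), with CHR as diamonds, CCAAT boxes as circles and E2F cores as squares. One window is drawn per gene; E2F cores lie in most licensing and helicase rows and in a few others, and most CHR matches lie in the mitotic rows below them.

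Levels of the 36 genes were highest in the libraries labelled old PBS. Of the 36, 32 had their highest TPM in old PBS library 2, 3 in old PBS library 1, and 1, Cenpf, in old MIT-001 library 2. The lowest TPM was in young PBS library 2 for 21 genes, in old MIT-001 library 1 for 13 and in young PBS library 1 for 2. Summed over the 36, the TPM was 831 and 490.3 in young PBS, 1030 and 1403 in old PBS, and 573 and 743 in old MIT-001. Pcna was the most abundant of them per length, at 57.1 to 140.0 TPM, and Cenpe was the lowest in any library, at 0.750 TPM in young PBS library 2. The sum reached its lowest value in the same library in which oocyte genes were lowest, and the other young PBS library stood above both old MIT-001 libraries.

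**Figure D2:**
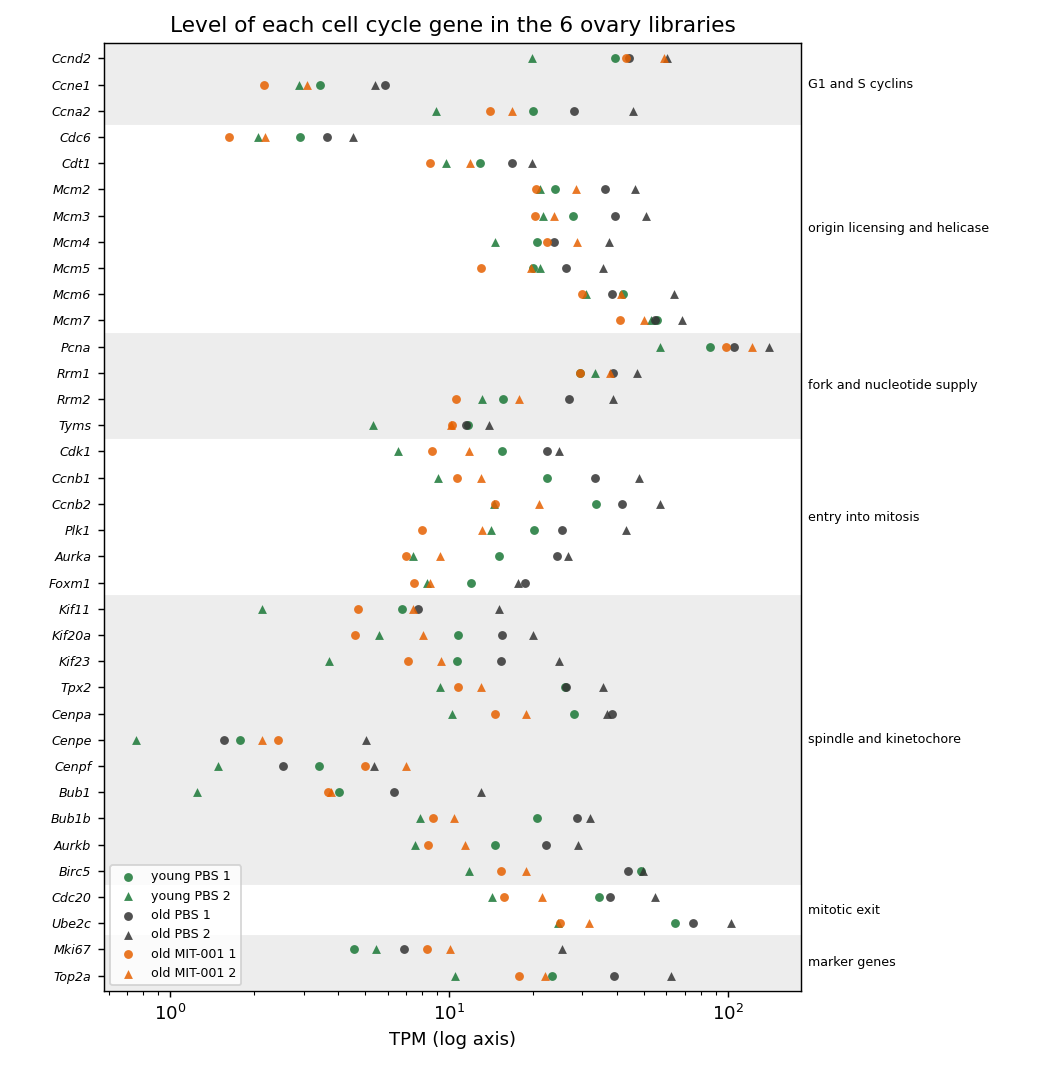
TPM (log axis) of each gene in the 6 libraries, by role, with young PBS in green, old PBS in dark grey and old MIT-001 in orange, library 1 as circles and library 2 as triangles. A dark grey symbol lies farthest to the right in 35 of 36 rows, though not always both of them, and green circles and triangles are far apart in most mitotic rows.

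With the labels taken as given, old PBS against young PBS asks how ovaries differ with age. All 36 genes were higher in the old PBS mean, as were 68.1% of all genes tested, and no gene passed limma's test after Benjamini-Hochberg adjustment over 16473 genes (adjusted p from 0.219 for Top2a to 0.723 for Mcm7), where 6 genes, or 0.0364% of those tested, did. At an unadjusted p under 0.05, 18 of the 36 were higher and 0 lower, against 14.6% higher and 3.55% lower among all genes tested. Both old PBS libraries stood above both young PBS libraries in 30 of 36, against 38.1% of all genes tested. The median difference of the 36 was 0.92 in log2(TPM + 1), against 0.23 over all genes tested. The count of 18 was 6 without young PBS library 2 and 0 without old PBS library 2. Without young PBS library 1 it was 27, and 12 genes then had an adjusted p under 0.05 by limma: Ccna2, Cdk1, Ccnb1, Aurka, Kif23, Tpx2, Cenpa, Bub1b, Aurkb, Birc5, Ube2c and Top2a. How many of all genes did so in that fit is not given here, so the 12 have no background to be read against. With all libraries kept, the count of 18 was 7 with median centring and 5 with quantile normalization, all higher in old PBS. Both scalings turned the sign of Mcm7 (-0.15 and -0.0099). Centring also took the share of higher genes among all genes at an unadjusted p under 0.05 from 80.5% to 36.2%.

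MIT-001 against PBS within the 65 week groups asks what the compound does in old ovaries. Of the 36 genes, 35 were lower in old MIT-001 and Cenpf was higher, against 53.5% higher among all genes tested, and again none passed the adjusted limma test (adjusted p from 0.208 for Plk1 to 0.99 for Ccnd2), where 3 of all genes, or 0.0182%, did. At an unadjusted p under 0.05, 22 were lower and 0 higher, against 4.36% lower and 7.45% higher among all genes tested. Both old MIT-001 libraries lay below both old PBS libraries in 29 of 36, against 24.2% of all genes. The median difference was -1.09 in log2(TPM + 1), against 0.03 over all genes. The count of 22 was 4 without old MIT-001 library 1 and 3 without old PBS library 2. When young PBS was left out of the fit, Ccnb1, Aurka, Bub1b, Birc5 and Ube2c had an adjusted p under 0.05 by limma. How many of all genes did so in that fit is not given here. The old PBS libraries serve in both of these comparisons, so the opposed directions are not independent of each other.

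Between old MIT-001 and young PBS, 14 of the 36 were higher and 22 lower, against 69.3% higher among all genes tested. None had an unadjusted p under 0.05 by limma, against 17.1% higher and 0.813% lower among all genes tested, and 0 of all genes (0%) were called after adjustment. The median difference was -0.07, against 0.24 over all genes. Libraries did not overlap for 6 genes higher in old MIT-001 (Ccnd2, Mcm4, Pcna, Cenpe, Cenpf, Mki67; 37.3% of all genes) and for 3 lower ones (Mcm5, Mcm7, Plk1; 6.56% of all genes). The count rested on the young pair. Without young PBS library 1, 6 of the 36 had an unadjusted p under 0.05, all higher in old MIT-001, and without young PBS library 2, 9 did, all lower. Both old MIT-001 libraries were below young PBS library 1 in 26 of 36 and above it in 7. Median centring moved the all-gene median from 0.24 to -0.17 and that of the 36 from -0.07 to -0.48, with 4 genes then lower at an unadjusted p under 0.05.

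**Figure D3:**
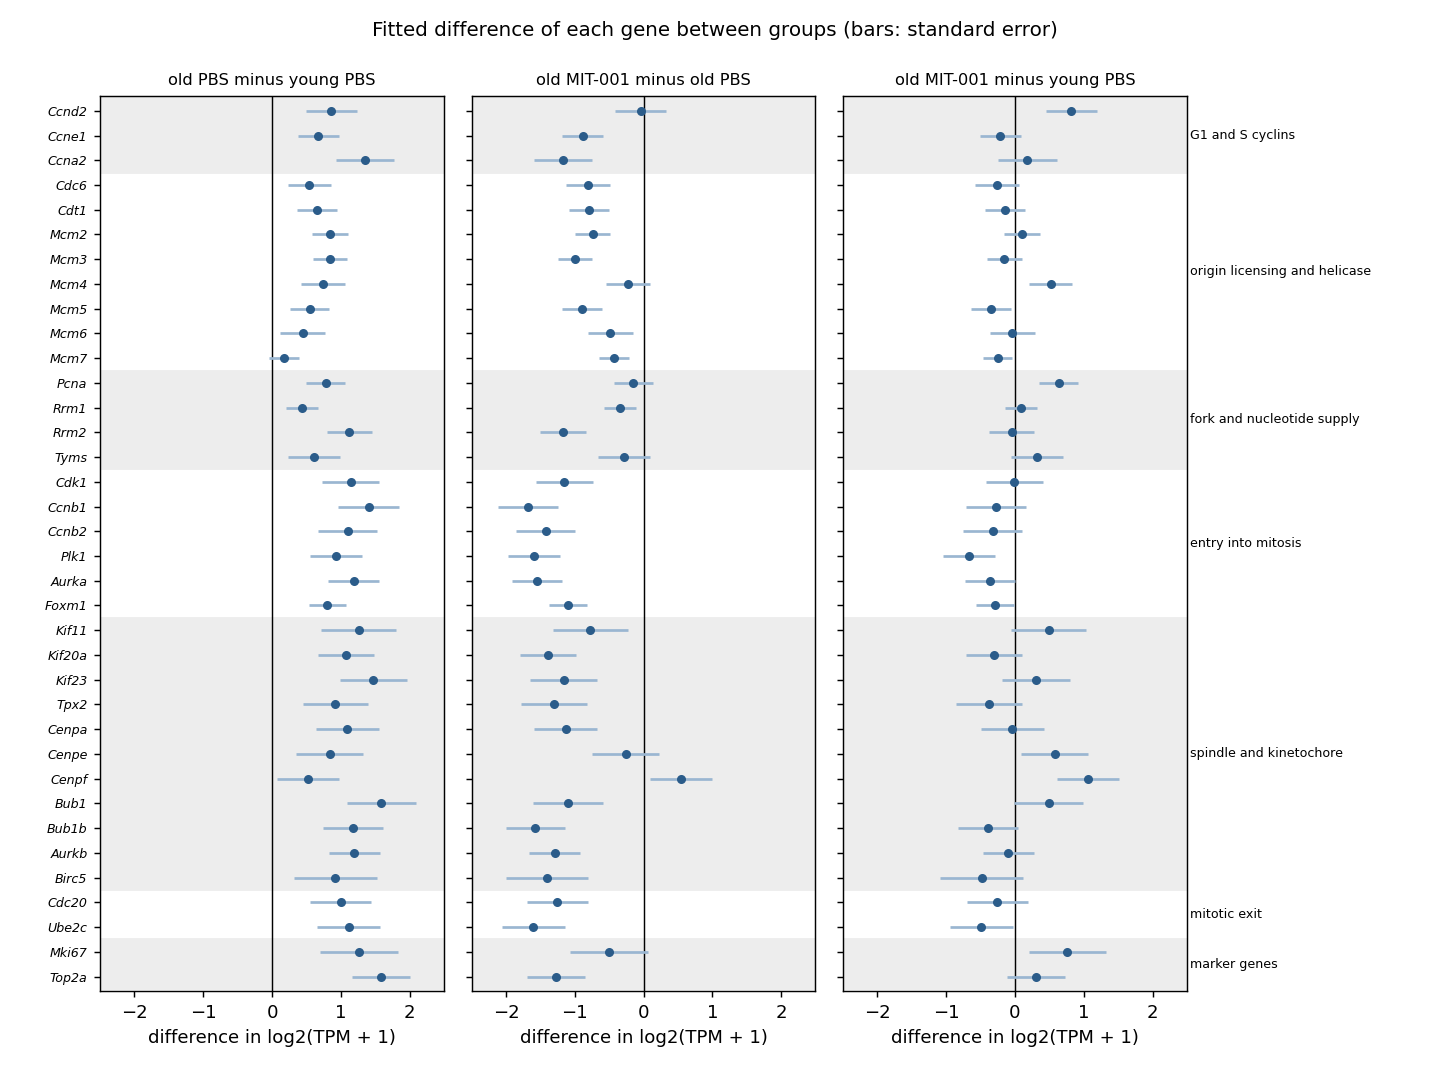
Fitted difference of each gene in log2(TPM + 1), with its standard error as a bar, for old PBS minus young PBS, old MIT-001 minus old PBS and old MIT-001 minus young PBS. All points are right of 0 in the first panel, all but Cenpf left of 0 in the second, and points lie on both sides in the third.

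The cyclins of G1 and S phase differed among themselves. Cyclin A2 (Ccna2), which drives S phase and the approach to mitosis, was at 20.0 and 8.93 TPM in young PBS, 28.0 and 45.6 TPM in old PBS, and 14.0 and 16.7 TPM in old MIT-001. Both old PBS libraries were above all others. Its difference was 1.35 ± 0.43 (SE) for old PBS against young PBS (adjusted p = 0.225, limma) and -1.17 ± 0.43 for old MIT-001 against old PBS (adjusted p = 0.361, limma). Cyclin E1 (Ccne1), which starts S phase with CDK2, was at 3.45 and 2.89 TPM in young PBS, 5.89 and 5.40 TPM in old PBS, and 2.16 and 3.09 TPM in old MIT-001, again with old PBS on top and no overlap. Cyclin D2 (Ccnd2), the D cyclin that granulosa cells need to multiply in response to FSH, followed another order: 39.4 and 19.8 TPM in young PBS, 44.2 and 60.3 TPM in old PBS, and 43.0 and 58.6 TPM in old MIT-001. The old PBS and old MIT-001 pairs of Ccnd2 overlapped almost fully, with a difference of -0.04 ± 0.37 (adjusted p = 0.99, limma), and both stood above young PBS.

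The licensing and helicase genes stood above young PBS in old PBS, with a median of 0.60 over 8 genes. At an unadjusted p under 0.05 there were 2 of 8, not far from the 14.6% of all genes. With median centring or quantile normalization these 2 became 0. In old MIT-001 against old PBS the median was -0.77 with 5 of 8, against 4.36% of all genes. These 5 stayed 5 with either scaling and were 3 with FPKM, and the count fell when some of the libraries were left out. Mcm3 was at 27.8 and 21.6 TPM in young PBS, 39.3 and 50.8 TPM in old PBS, and 20.3 and 23.7 TPM in old MIT-001. It did not overlap between old PBS and either other group, at 0.84 ± 0.25 against young PBS (adjusted p = 0.224, limma) and -0.99 ± 0.25 for old MIT-001 against old PBS (adjusted p = 0.223, limma). Mcm2, another helicase subunit, was at 23.8 and 21.0 TPM in young PBS, 36.2 and 46.4 TPM in old PBS, and 20.5 and 28.4 TPM in old MIT-001. Mcm5 was at 19.9 and 21.1 TPM in young PBS, 26.1 and 35.4 TPM in old PBS, and 12.9 and 19.6 TPM in old MIT-001. Both again had old PBS on top, and Mcm5 was below young PBS in both old MIT-001 libraries. Cdt1, which loads the helicase onto origins, differed by -0.79 ± 0.29 between old MIT-001 and old PBS, and the loader Cdc6 by -0.81 ± 0.32. The 6 helicase subunits are needed in equal numbers, yet Mcm4 differed by only -0.23 ± 0.32 there, Mcm6 by -0.48 ± 0.33 and Mcm7 by -0.43 ± 0.22, against -0.99 for Mcm3. Whether the subunits differ from each other was not tested. Mcm4 was at 20.6 and 14.6 TPM in young PBS, 23.7 and 37.3 TPM in old PBS, and 22.3 and 28.6 TPM in old MIT-001, with overlapping old groups, both above young PBS. In Mcm7 the difference between old PBS and young PBS was 0.17 ± 0.22, the smallest of the 36.

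At the replication fork, Rrm2, the subunit of ribonucleotide reductase whose supply limits dNTP synthesis, was at 15.5 and 13.0 TPM in young PBS, 26.8 and 38.5 TPM in old PBS, and 10.6 and 17.8 TPM in old MIT-001. Both old PBS libraries were above the rest, by 1.12 ± 0.33 over young PBS (adjusted p = 0.224, limma), and old MIT-001 stood at -1.17 ± 0.33 against old PBS (adjusted p = 0.261, limma). Its partner Rrm1, whose protein is stable through the cycle, was at 29.3 and 33.1 TPM in young PBS, 38.4 and 47.1 TPM in old PBS, and 29.4 and 37.6 TPM in old MIT-001, a narrower range. Pcna, the sliding clamp of DNA polymerases, was at 85.8 and 57.1 TPM in young PBS, 104.7 and 140.0 TPM in old PBS, and 98.2 and 121.8 TPM in old MIT-001. The old PBS and old MIT-001 libraries of Pcna overlapped (-0.15 ± 0.28, adjusted p = 0.943, limma), and both pairs were above young PBS. Reads of the pseudogene Pcna-ps2, at up to 40.6 TPM, may have been exchanged with Pcna. Tyms, which makes thymidylate, was at 11.6 and 5.31 TPM in young PBS, 11.4 and 13.8 TPM in old PBS, and 10.2 in both libraries of old MIT-001. Young PBS and old PBS overlapped for Tyms, and old MIT-001 lay below old PBS.

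All 6 genes for entry into mitosis had an unadjusted p under 0.05 in both comparisons with old PBS, where 14.6% of all genes were higher and 4.36% lower at that p. Their medians were 1.12 against young PBS and -1.49 for old MIT-001 against old PBS. With all libraries kept, the 6 at that p against young PBS were 2 with FPKM, 2 with median centring and 1 with quantile normalization. They stayed 6 under each of these for old MIT-001 against old PBS. In the first comparison the 6 became 0 without old PBS library 2, 2 without old PBS library 1 or young PBS library 2, and 3 without either old MIT-001 library. In the second they became 3 without old PBS library 2 and 4 without old MIT-001 library 1. Cyclin B1 (Ccnb1), the partner of CDK1, was at 22.5 and 9.13 TPM in young PBS, 33.1 and 47.7 TPM in old PBS, and 10.6 and 12.9 TPM in old MIT-001. Old PBS was above both other groups, and young PBS library 1 was above both old MIT-001 libraries. The difference was 1.40 ± 0.44 for old PBS against young PBS (adjusted p = 0.225, limma) and -1.68 ± 0.44 for old MIT-001 against old PBS (adjusted p = 0.236, limma), where its unadjusted p was 0.00822. Plk1, a kinase that drives entry and spindle assembly, was at 20.1 and 14.1 TPM in young PBS, 25.3 and 42.8 TPM in old PBS, and 7.98 and 13.1 TPM in old MIT-001. Its old MIT-001 libraries were the lowest of all 6, at -1.59 ± 0.38 against old PBS (adjusted p = 0.208, limma) and -0.67 ± 0.38 against young PBS (adjusted p = 0.427, limma). Aurka, a kinase of the centrosome, was at 15.1 and 7.39 TPM in young PBS, 24.4 and 26.5 TPM in old PBS, and 7.01 and 9.22 TPM in old MIT-001, with a difference of -1.55 ± 0.37 between the old groups (adjusted p = 0.209, limma). Its old PBS libraries were close together and far above the other 4. Cdk1, Ccnb2 and Foxm1, the last a factor that activates mitotic genes, differed by 1.14, 1.10 and 0.81 between old PBS and young PBS and by -1.15, -1.42 and -1.09 between old MIT-001 and old PBS.

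The 11 spindle and kinetochore genes had a median of 1.10 for old PBS against young PBS and -1.16 for old MIT-001 against old PBS, with 5 of 11 at an unadjusted p under 0.05 in each (14.6% of all genes higher in the first, 4.36% lower in the second). The first count was 3 with FPKM, 3 with median centring and 2 with quantile normalization. The second was 3 with FPKM and 8 with either scaling. Both counts fell when some of the libraries were left out. Bub1, a spindle checkpoint kinase, was at 4.02 and 1.25 TPM in young PBS, 6.33 and 12.9 TPM in old PBS, and 3.67 and 3.78 TPM in old MIT-001. Its 1.59 ± 0.50 over young PBS was the largest of the 36 (adjusted p = 0.225, limma). Bub1b, which encodes the checkpoint protein BubR1, was at 20.6 and 7.87 TPM in young PBS, 28.6 and 32.1 TPM in old PBS, and 8.75 and 10.3 TPM in old MIT-001. Aurkb, the kinase of the chromosomal passenger complex, was at 14.6 and 7.50 TPM in young PBS, 22.2 and 28.9 TPM in old PBS, and 8.39 and 11.4 TPM in old MIT-001. In both, each old PBS library was above all the others. Birc5 (survivin), of the same complex as Aurkb, was at 48.6 and 11.8 TPM in young PBS, 43.6 and 49.6 TPM in old PBS, and 15.2 and 18.9 TPM in old MIT-001, so young PBS library 1 lay among the old PBS libraries. Tpx2, a spindle assembly factor, and Cenpa, the centromere histone, differed by -1.30 ± 0.48 and -1.13 ± 0.45 between old MIT-001 and old PBS. The motors Kif11, Kif20a and Kif23 differed by -0.77, -1.39 and -1.16 there. Kif11, which pushes the spindle poles apart, was at 6.78 and 2.13 TPM in young PBS, 7.74 and 15.0 TPM in old PBS, and 4.72 and 7.40 TPM in old MIT-001, the last 0.49 ± 0.54 above young PBS. Kif23, of the spindle midzone, was at 10.6 and 3.69 TPM in young PBS, 15.3 and 24.8 TPM in old PBS, and 7.13 and 9.32 TPM in old MIT-001. For both motors the old MIT-001 libraries lay below both old PBS libraries and, with the exception of Kif11 in library 2, below young PBS library 1.

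Cenpf and Cenpe, large kinetochore proteins, did not follow this order. Cenpf was at 3.41 and 1.48 TPM in young PBS, 2.53 and 5.35 TPM in old PBS, and 4.98 and 7.00 TPM in old MIT-001. It was the only one of the 36 higher in old MIT-001 than in old PBS, at 0.55 ± 0.45 (adjusted p = 0.773, limma), with overlapping libraries, and it was 1.07 ± 0.45 above young PBS (adjusted p = 0.29, limma), without overlap. Cenpe was at 1.77 and 0.750 TPM in young PBS, 1.56 and 5.04 TPM in old PBS, and 2.44 and 2.14 TPM in old MIT-001. Its old PBS libraries enclosed both old MIT-001 libraries and young PBS library 1, and the difference between old MIT-001 and young PBS was 0.58 ± 0.49 (adjusted p = 0.626, limma).

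Of the genes for leaving mitosis, Ube2c, which hands ubiquitin to the anaphase promoting complex, was at 64.2 and 24.6 TPM in young PBS, 74.6 and 102.0 TPM in old PBS, and 25.0 and 31.6 TPM in old MIT-001. Cdc20, the activator of that complex, was at 34.4 and 14.2 TPM in young PBS, 37.7 and 54.5 TPM in old PBS, and 15.7 and 21.6 TPM in old MIT-001. Old PBS was above all others for both genes, but young PBS library 1 was close behind. The difference of Ube2c was -1.60 ± 0.46 between old MIT-001 and old PBS (adjusted p = 0.263, limma) and -0.49 ± 0.46 between old MIT-001 and young PBS (adjusted p = 0.661, limma).

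The markers of dividing cells gave unlike pictures. Top2a was at 23.4 and 10.5 TPM in young PBS, 38.8 and 62.3 TPM in old PBS, and 17.7 and 22.0 TPM in old MIT-001. Old PBS was above the rest, by 1.59 ± 0.42 over young PBS (adjusted p = 0.219, limma), and old MIT-001 stood at -1.27 ± 0.42 against old PBS (adjusted p = 0.322, limma). Mki67, which encodes the Ki-67 protein that coats mitotic chromosomes, was at 4.53 and 5.47 TPM in young PBS, 6.85 and 25.3 TPM in old PBS, and 8.30 and 10.1 TPM in old MIT-001. A single library, old PBS 2, stood apart for Mki67, and both old MIT-001 libraries were above old PBS library 1. Its difference was 1.26 ± 0.56 for old PBS against young PBS (adjusted p = 0.305, limma) and -0.50 ± 0.56 for old MIT-001 against old PBS (adjusted p = 0.865, limma). Without old PBS library 2 the latter was 0.37, with the opposite sign.

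Transcript length moved with the differences of the 36 genes in the comparisons with old MIT-001, but hardly in old PBS against young PBS, where Spearman's rho was -0.07 and Pearson's r -0.10. Of the 5 genes whose longest coding transcript (GENCODE vM21) exceeds 5000 bases, Top2a, Ccnd2, Cenpe, Mki67 and Cenpf, the median difference of old MIT-001 against old PBS was -0.26, against -1.27 for 6 genes under 2000 bases. Against young PBS, the medians of old MIT-001 were 0.76 and -0.18. Across the 36 genes, Spearman's rho with log2 length was 0.39 and Pearson's r 0.51 for the first comparison, and 0.40 and 0.56 for the second. These describe genes that share the same libraries, and no p is given. Over 13831 genes tested that had a length, the medians for old MIT-001 against young PBS were 0.53 above 5000 bases (2818 genes) and 0.02 below 2000 (3636 genes). For old MIT-001 against old PBS they were 0.10 and -0.01, and for old PBS against young PBS 0.45 and 0.03. Spearman's rho over these genes was 0.33, 0.06 and 0.28 in the same order. Over all genes, then, length also moved with old PBS against young PBS and hardly with old MIT-001 against old PBS, unlike in the 36. Between the old PBS libraries themselves, library 2 exceeded library 1 by a median of 0.85 for the 5 long members and 0.39 for the 6 short ones. The part of length in the differences was not tested.

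**Figure D4:**
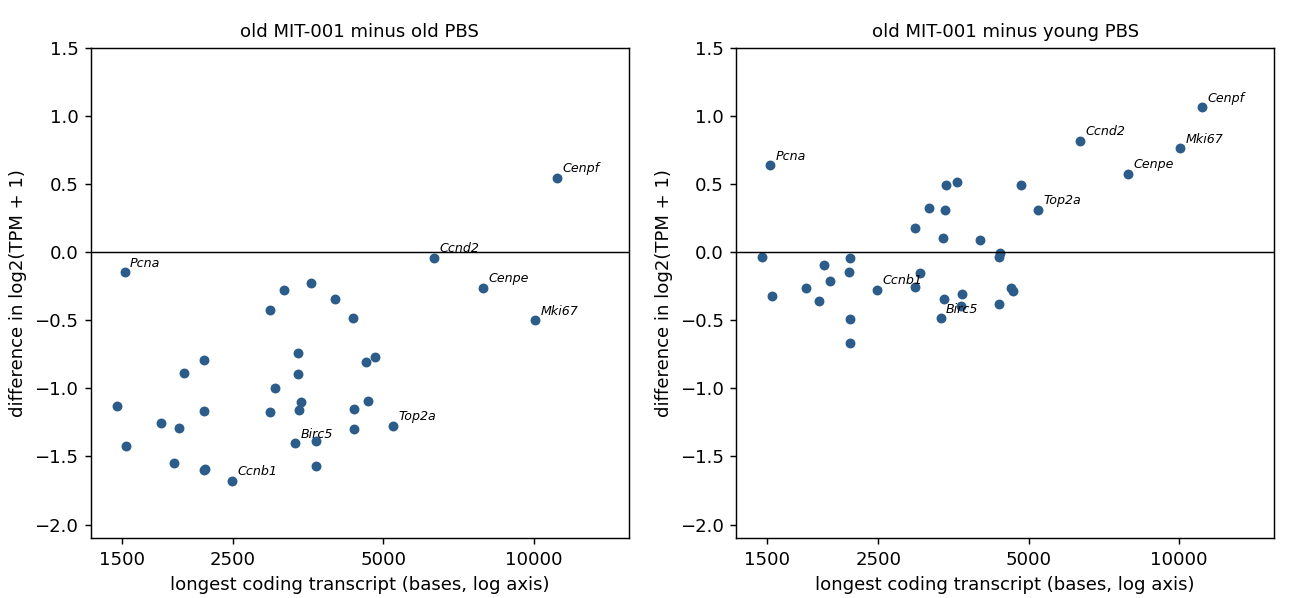
Difference of each of the 36 genes in log2(TPM + 1) against the length of its longest coding transcript in bases (log axis), for old MIT-001 minus old PBS and old MIT-001 minus young PBS. Cenpf, Mki67, Cenpe and Ccnd2 lie above most shorter genes in both panels, and Pcna, among the shortest, does as well.

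Genes grouped by the motifs of their windows are described without a test. The 14 genes with a CHR had a median of 1.13 for old PBS against young PBS, -1.21 for old MIT-001 against old PBS, and in old MIT-001 set against young PBS it was -0.02. The 8 genes with an E2F core and no CHR, most of them licensing and helicase genes, stood at 0.54, -0.80 and -0.20. The 7 with neither stood at 0.84, -0.89 and 0.32, with Bub1 and Pcna among them. Whether these groups differ was not tested.

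Markers of follicle cells moved with the 36 genes across the groups. In old PBS against young PBS, 12 of 12 granulosa genes were higher, 10 at an unadjusted p under 0.05, and 14 of 14 oocyte genes, 7 of them so, against 68.1% and 14.6% of all genes. In old MIT-001 against old PBS, 11 of 12 granulosa genes were lower, 8 at an unadjusted p under 0.05, and 14 of 14 oocyte genes, 13 of them so, where 4.36% of all genes were lower at that p. Theca and interstitial genes were higher in old PBS than in young PBS for 6 of 7, 4 at an unadjusted p under 0.05, with a median of 1.18. In old MIT-001 against old PBS 7 of 7 were lower, 3 at that p, with a median of -1.10. Their summed TPM did not follow, at 19849 and 38845 in young PBS, 33294 and 31133 in old PBS, and 22974 and 21568 in old MIT-001. The summed TPM of the granulosa list was 3534 and 3149 in young PBS, 7618 and 9591 in old PBS, and 2755 and 3995 in old MIT-001. That of the oocyte list was 432 and 49.8 in young PBS, 660 and 696 in old PBS, and 119 and 60.5 in old MIT-001. None of either list was at 0 in any library. Most endothelial and erythroid genes had the same signs as the 36, in part near the background. Endothelial genes were higher in old PBS than in young PBS for 4 of 5, 0 at an unadjusted p under 0.05 by limma. Their median there was 0.20, against 0.23 over all genes. In old MIT-001 against old PBS 5 of 5 were lower, 2 at that p (4.36% of all genes). Of the erythroid genes tested, 4 of 4 were higher in the first comparison, 2 at that p. In the second, 4 of 4 were lower, 0 at that p, and libraries did not overlap in 1 of them (24.2% of all genes). Surface epithelium genes went the other way, with 8 of 8 higher in old MIT-001 than in old PBS, each at an unadjusted p under 0.05 (7.45% of all genes), and summed TPM of 655 and 680 against 174 and 169. Macrophage genes were at 800 and 803 summed TPM in young PBS, 133 and 155 in old PBS, and 369 and 346 in old MIT-001. Of the T and NK cell genes tested, 4 of 4 were lower in old PBS than in young PBS, and 5 of 5 oviduct and ciliated genes. In old MIT-001 against old PBS all of these were higher, as were 53.5% of all genes. The part of cell makeup in the differences of the 36 genes was not tested, and in whole ovaries fewer cells of a type and less RNA per cell cannot be told apart.

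Library pairs of the same label show which of these lists moved within a group. In young PBS, library 1 was higher for 33 of the 36 genes, with a median difference of library 2 minus library 1 of -0.85 in log2(TPM + 1). That median was -1.28 for spindle and kinetochore genes and -1.03 for entry into mitosis, but -0.35 for licensing and helicase genes. In the same pair the oocyte list differed by -2.80, with 14 of 14 lower in library 2, the B and plasma cell list by -2.0, with 6 of 6 lower, and the luteal list by 2.75. The granulosa list was mixed there, with a median of -0.06, 5 of 12 higher in library 2 and 7 lower, and a range from -3.05 to 1.52. In old PBS, library 2 was higher for 33 of the 36 genes, by a median of 0.43, with the granulosa list at 0.33 and the oocyte list at -0.02. In old MIT-001, library 2 was higher for 34 of the 36, by 0.34, with the granulosa list at 0.52 and the oocyte list at -0.74. These are 3 pairs of libraries, and no test was made.

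**Figure D5:**
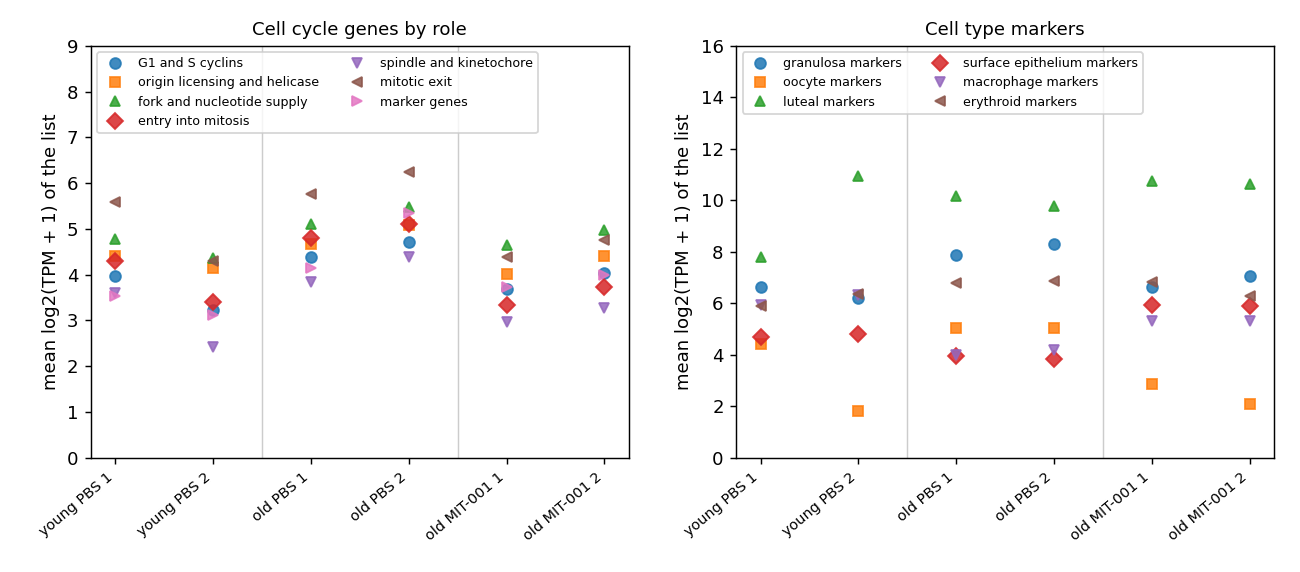
Mean log2(TPM + 1) of each role of the 36 genes (left) and of 6 lists of cell type markers (right) in the 6 libraries. Every role is highest in old PBS library 2, granulosa and oocyte markers are highest in the old PBS libraries, and oocyte markers are lowest in young PBS library 2.

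Other genes of the cell cycle, 101 from a list of replication, mitosis, cyclin and kinase, and E2F, RB and MuvB genes, were read beside the 36. Of these 99 were tested and none was called after adjustment in any of the 3 comparisons by limma. For old PBS against young PBS 97 of 99 were higher (68.1% of all genes), 47 at an unadjusted p under 0.05 (14.6% of all genes), with a median of 0.93. Old MIT-001 was lower than old PBS in 90 of 99, 32 of them at an unadjusted p under 0.05 (4.36% of all genes), with a median of -0.74. Between old MIT-001 and young PBS, 61 were higher and 38 lower, with 9 and 2 at an unadjusted p under 0.05. Among all genes 69.3% were higher, and 17.1% were higher and 0.813% lower at that p, so the higher counts of the list were at or under the background. The mitosis genes among them had medians of 1.18 and -0.97 in the comparisons with old PBS, and the replication genes 0.69 and -0.60. Among replication genes, Exo1, a nuclease of mismatch repair, and Gins2, of the replicative helicase complex, differed by 1.53 and 1.24 between old PBS and young PBS. Uhrf1, which passes DNA methylation to the new strand, and Mcm10, an initiation factor, differed by -1.37 and -1.48 between old MIT-001 and old PBS. For mitosis, Ect2 and Anln, which act in cytokinesis, differed by 1.57 and 1.40 between old PBS and young PBS, and Spc24 and Ncapd2, of the kinetochore and of condensin, by -1.17 and -0.89 between old MIT-001 and old PBS. Smc4, a condensin ATPase, was at 7.04 and 5.07 TPM in young PBS, 8.38 and 35.0 TPM in old PBS, and 23.3 and 20.5 TPM in old MIT-001, 1.71 above young PBS in the last. The old MIT-001 libraries of Smc4 lay between the old PBS libraries.

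Of 19 E2F, RB and MuvB genes, 5 were lower in old MIT-001 than in old PBS at an unadjusted p under 0.05 by limma, against 4.36% of all genes: E2f1 at -0.97, E2f2 at -0.88, E2f7 at -1.13, E2f8 at -1.20 and Mybl2, which encodes B-MYB, at -1.43. The other 14 lay between -0.33 (E2f3) and 0.12 (Rbl2). E2f8, a repressor of S phase genes, was at 1.78 and 1.84 TPM in young PBS, 4.82 and 6.67 TPM in old PBS, and 1.36 and 2.58 TPM in old MIT-001, so old PBS did not overlap with the others. Tfdp1 and Tfdp2, the partners that most E2F proteins need to bind DNA, were 0.81 and 0.93 higher in old PBS than in young PBS, and Lin54, the MuvB subunit that binds CHR, 1.14. Between old MIT-001 and young PBS, Tfdp2, Lin9 and Lin54 differed by 1.05, 1.13 and 0.91, and Lin37, another MuvB subunit, by -0.64. Lin54 was at 2.90 and 2.35 TPM in young PBS, 5.39 and 8.96 TPM in old PBS, and 5.68 and 5.95 TPM in old MIT-001, with both old MIT-001 libraries inside the old PBS range. Of the cyclins and kinases beyond the 36, Ccnf differed by 0.96 and Cdk6 by 0.85 between old PBS and young PBS, and Ccnf by -1.26 and Cdc25b, a phosphatase that activates CDK1, by -0.69 between old MIT-001 and old PBS. Ccnd1 was at 15.5 and 8.23 TPM in young PBS, 11.5 and 13.4 TPM in old PBS, and 16.2 and 21.9 TPM in old MIT-001, the highest pair in the old MIT-001 group.

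Of the 36 genes, 7 overlap a gene on the other strand, whose reads cannot be told apart from theirs without a stated strand setting. These were Ccnd2 with 9330179D12Rik (up to 1.67 TPM), Kif11 with Gm46649 (up to 0.239 TPM), Cdc20 with Elovl1 (up to 160 TPM), Kif20a with Brd8 and Cdc23 (up to 51.3 TPM), Mcm7 with Ap4m1 (up to 32.0 TPM), Ccna2 with Exosc9 (up to 29.5 TPM) and Aurka with Cstf1 (up to 29.1 TPM).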

How the data were processed

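Messenger RNA of ovary tissue was sequenced in 6 libraries, 2 per group, with groups taken from the labels. TRIzol was used for extraction and a SMARTer mRNA kit for the libraries, per the labels' protocols. Trimmomatic, HISAT2, StringTie and mm10 are named in the submitters' processing notes. For their versions, the annotation and the strand setting, the entry is: not given in the sources used here. Per the file headers, the authors deposited TPM, which is scaled for length and for the library total. FPKM, also deposited by the authors per the file headers, served as an alternative unit. The deposited coverage signal was used to estimate depth alone. Because no read counts were used, the only measure of precision is how far libraries of a group differ.

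RefSeq's table for GRCm38.p6 gave the symbols by NCBI Gene ID; 98 rows per library had no match and were left out. The 16473 genes that reached 1 TPM in 2 or more libraries were fitted as log2(TPM + 1) in limma 3.58.1 (R 4.3.3), with a mean for each group, an intensity trend, 3 residual degrees of freedom and 3.12 prior ones. All tests are two-sided, with Benjamini-Hochberg adjustment over every gene tested and calls at 0.05. The added 1 makes differences of low genes too small. Errors are standard errors. Promoter sequences are from RefSeq (GRCm38.p6). Windows are placed on annotated starts, 1 for each gene found except Mcm7, which has 2. The starts used for Aurka, Cdc6, Mcm5, Mki67 and both windows of Mcm7 lie inside the gene's span in the files. Some others do so by fewer bases. The procedure was run on simulated data with independent noise for each gene, which does not cover genes that move together within a library.

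The members and lists were chosen with earlier results of these data known. All 36 genes are named by role, with every library's values for Mki67, Top2a, the up to 2 members of each role with the smallest p in each comparison with old PBS, and members with a sign against the median of the 36 genes. Birc5 was added after its values were seen. Of the other pathway genes, those with the smallest p in each list are named, and library values are given for some of them, chosen after these were seen. Of 12 lists of cell type markers, most that moved with or against the members are described, some by counts alone. This choice was made after their values were seen. Alternatives were another pseudocount, filter, unit or scaling, only the libraries compared, each library left out, and the replicate number as a block.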

Additional observations from a re-analysis of the deposited data

How the results depend on the processing

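The median of the 36 genes kept its sign in both comparisons with old PBS under every alternative run. For old PBS against young PBS, every gene tested was higher in each of them, except Mcm7 with median centring (-0.15) and quantile normalization (-0.0099) and Birc5 without young PBS replicate 2 (-0.061). The count at an unadjusted p under 0.05 by limma for old PBS against young PBS (18) was 10 with FPKM, 7 with median centring and 5 with quantile normalization, and from 0 to 27 with a library left out, and adjusted calls ranged from 0 to 12. For old MIT-001 against old PBS (22) it ranged from 3 to 25 with a library left out, with 0 to 5 adjusted calls, and 5 with only the 4 libraries compared. For old MIT-001 against young PBS (0) it was 4 with centring and 4 with quantile normalization, and 0 to 9 with a library left out; the median (-0.07) was -0.48, -0.50 and -0.33 to 0.33. The cause was not tested. Shares of all genes called after adjustment with a library left out are not given here, so those adjusted calls have no background.

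Some values of named genes changed sign. For old MIT-001 against old PBS, leaving out a library gave -0.26 to 0.18 for Ccnd2, -0.35 to 0.063 for Pcna and -1.37 to 0.37 for Mki67. For old MIT-001 against young PBS, it gave -0.36 to 0.72 for Ccna2, -0.12 to 0.33 for Mcm2, -0.080 to 0.26 for Rrm1, -0.18 to 0.83 for Tyms, -0.17 to 1.15 for Kif11, -0.34 to 0.97 for Kif23, -0.087 to 1.07 for Bub1 and -0.23 to 0.85 for Top2a. FPKM gave -0.045 for Mcm2 and -0.055 for Rrm1. Median centring gave -0.24 for Ccna2, -0.31 for Mcm2, -0.32 for Rrm1, -0.091 for Tyms, -0.10 for Kif23 and -0.10 for Top2a. Quantile normalization gave -0.30 for Ccna2, -0.25 for Mcm2, -0.17 for Rrm1, -0.21 for Tyms, -0.059 for Kif11, -0.23 for Kif23 and -0.12 for Top2a.

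Libraries of different groups share replicate numbers, but the labels do not say that a number marks a shared animal or day. Deviations of same-numbered libraries correlated at 0.0066 for young PBS with old PBS, 0.175 for old MIT-001 with old PBS and 0.239 for young PBS with old MIT-001. With the replicate number as a block, the counts at an unadjusted p under 0.05 were 15, 21 and 0 for the 3 comparisons, and none of the 36 was called after adjustment by limma. Depth could not be taken from counts, so counting error of low genes such as Cenpe and Cdc6 is unknown.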
